A study of Mus musculus with 8 samples.

Results

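The genes described here encode the constitutive proteasome: the subunits of its core and regulatory particles, the activators and the inhibitor that bind the core, and the Psm-named chaperones that help to assemble both particles. Members were taken by name, as every table entry whose symbol is Psm, a letter from a to g and digits, without the interferon-inducible subunits Psmb8, Psmb9 and Psmb10. The rule found 45 of 25766 entries, of which 44 passed the filter on low counts, and only Psmb11 did not. Psmc3ip and Psme2b carry further letters in their symbols and fall outside it. Sem1 and Adrm1, subunits of the regulatory particle with other names, fall outside it as well. RNA was sequenced from 8 subcutaneous tumors grown in female mice from MC38-OVA cells, which derive from a colon adenocarcinoma of the mouse and were given ovalbumin as a model antigen. The injected cells held a hairpin labelled shNT in 4 tumors, the control arm, and a hairpin against Xbp1, labelled shXBP1, in the other 4. All 8 tumors share the line, its ovalbumin and the site of injection. The mice are given as C57BL/6J in one label and C57BL/5J in another, and no age is given. The hairpins are in the injected cells only, whereas total RNA came from the whole tumor, so host cells with intact Xbp1 contribute to every value. Whether every numbered tumor grew in a separate mouse is not stated, and p-values therefore cover the spread between these tumors only. Values of single tumors are listed in the order of the tumor numbers, 1 to 4 in each group.

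The proteasome degrades proteins that carry ubiquitin chains. Its barrel-shaped core has outer alpha rings, which gate the entrance, and inner beta rings, of which Psmb5, Psmb6 and Psmb7 supply the constitutive active sites. The regulatory particle caps the barrel: its base holds a ring of ATPases that unfold substrates, and its lid removes ubiquitin. In cells exposed to interferon-gamma, Psmb8, Psmb9 and Psmb10 are built in at the places of Psmb5, Psmb6 and Psmb7, and the activator made of Psme1 and Psme2 is induced, which alters the peptides made for antigen presentation. XBP1 is a transcription factor active in the unfolded protein response, a program that enlarges the capacity of the endoplasmic reticulum to fold, export and degrade proteins.

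Between 29070605 and 36012997 reads were assigned to genes per tumor. Levels are given as CPM, the counts scaled to the TMM-adjusted library size, the scale used for one gene across tumors, and as the deposited FPKM, which corrects for gene length, for different genes. Xbp1 itself measured 97.34, 96.05, 102.5 and 109 CPM in the 4 shNT tumors and 77.2, 75.99, 73.72 and 56.65 CPM in the 4 shXBP1 tumors. Its log2 fold change was -0.51 (SE 0.10, edgeR adjusted p = 0.00255), and shXBP1 tumor 4 was the lowest of all 8. RNA of host cells differed between the groups. Of 12 leukocyte markers tested 11 were higher in the shXBP1 tumors, and the 14 listed markers summed to 309 to 388 CPM in the shNT tumors and 594 to 965 CPM in the shXBP1 tumors. Of 6 fibroblast markers 4 were higher (885 to 1209 CPM summed against 1638 to 2122), as were 3 of 5 endothelial markers (39.7 to 48.7 CPM against 84.6 to 96.9). The rise of the fibroblast sum came mostly from Dcn, with means of 305 CPM in shNT tumors and 1041 CPM in shXBP1 tumors. Col1a1 and Col1a2 were not called, with log2 fold changes of 0.05 and -0.26. Of 5 proliferation genes 3 were lower (2012 to 2215 CPM against 1454 to 1854). Markers of the labelled epithelial cell type were low: 8 keratin, adhesion and gut genes summed to 5.74 to 7.97 CPM and 7.65 to 11.2 CPM, 5 of them missed the filter, 0 of the 3 tested were called by edgeR (Krt19 and Cdh1 at an unadjusted p of 0.0223 and 0.0191), and Cdx2 had no count in any tumor. In whole tumors, fewer cells of a type and less RNA per cell cannot be told apart.

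Core and regulatory subunits were expressed at similar levels per length. Over the 31 core and regulatory subunits other than Psma8 and Psmb11, the median of the shNT mean FPKM was 102.5, and 27 of them were within 2-fold of it. The lowest was Psma2 at 37.6 ± 2.77 FPKM and the highest Psma7 at 264 ± 16.0 FPKM (SD, n = 4 shNT tumors), a 7.03-fold range. The beta ring subunits other than Psmb11 lay at 102 to 168 FPKM and included Psmb5 (102 ± 3.75), Psmb6 (152 ± 7.90) and Psmb7 (105 ± 9.43). The base ATPases Psmc1 to Psmc6 lay at 62.4 to 110 FPKM and the lid subunits at 42.4 to 148 FPKM. Factors that are not part of the finished particle were lower. The base chaperones Psmd5, Psmd9 and Psmd10 lay at 15.8 to 19.4 FPKM, the core chaperones Psmg1 to Psmg4 at 20.4 to 31.7 FPKM, and Psmf1, an inhibitor of the core, at 7.72 ± 0.49 FPKM. The activators spanned 15.1 FPKM for Psme4 to 158 FPKM for Psme1. In the shXBP1 tumors the subunit median was 97.7 FPKM, with Psma2 no longer lowest and a range of 37.7 to 255 FPKM.

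**Figure D1:**
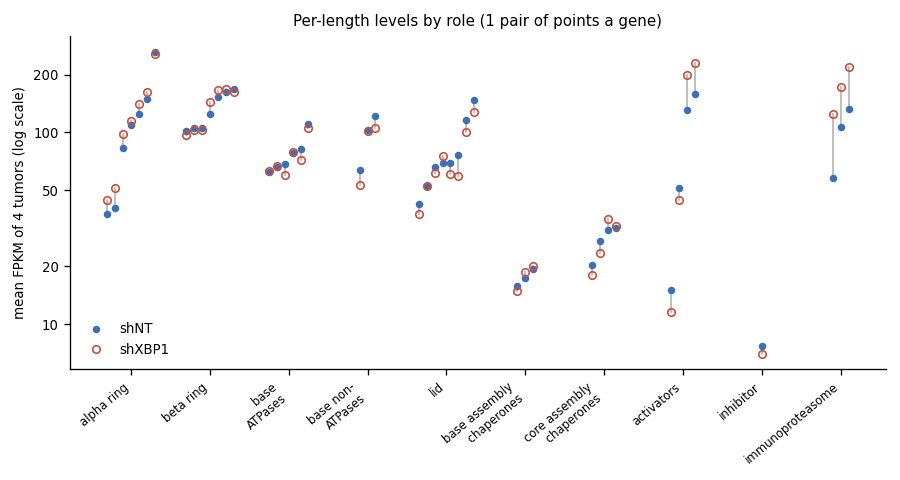
Mean FPKM over the 4 tumors of each group on a log axis, with 1 pair of points per gene, by role; Psma8 and Psmb11 are below the axis and are left out. Ring, base and lid subunits sit between 37.6 and 264 FPKM in the shNT tumors, chaperones and the inhibitor lie lower, and the inducible subunits and the activators Psme1 and Psme2 show the widest gap between groups.

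2 members are the tissue-restricted copies of other subunits. Psma8, an alpha subunit known from the testis, measured between 0.00 and 0.43 CPM, and shNT tumor 1 had no count for it where 3 counts would be 0.0926 CPM. Psmb11, a beta subunit known from the thymic cortex, had 4 counts over all 8 tumors. Psmb11 was not tested. Psma8 was tested in spite of its low counts (a log2 fold change of -0.16, SE 0.73, edgeR adjusted p = 0.892). It enters the counts and medians of the members, the core and the alpha ring.

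Between shXBP1 and shNT tumors most constitutive proteasome genes differed little. The edgeR quasi-likelihood test, at an adjusted p below 0.05, called 7 of the 44 tested members (15.9%), against 30.0% of all 14907 genes tested. Only Psme1 and Psme2 were higher, where 16.9% of all genes were, and Psmd1, Psmd2, Psmd3, Psmd7 and Psme4 were lower, where 13.1% were. The other 37 were not called. The median log2 fold change of the members was -0.04, beside -0.0054 over all genes, and the median size of the change was 0.16, beside 0.24. In a fit of the 10145 genes with at least 10 CPM in 4 tumors, a level that 43 members reach, the median size over all genes was 0.186. The size of the change was under 0.25 in 38 of the 44 members. In 9 members (20.5%) the CPM of the groups did not overlap, against 30.2% of all genes: Psme1 was the higher one, and Psmc5, Psmd1, Psmd3, Psmd7, Psmd8, Psmd11, Psme4 and Psmf1 the lower ones. The share called was therefore below that of all genes.

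Estimates differed between parts of each particle. Of the 15 tested core subunits 9 had a fold change above 0, none was called by edgeR, and the median log2 fold change was 0.08. The alpha ring had 6 of 8 above 0 and a median of 0.16, the beta ring 3 of 7 and a median of -0.03. Psma2, Psma3 and Psmb2 had an unadjusted edgeR p below 0.05. Voom called 0 core subunits and DESeq2 called Psmb2. EdgeR called Psmb2 higher with upper-quartile factors, a 10 CPM minimum, or shNT tumor 3 or shXBP1 tumor 4 left out. It called Psma3 without shNT tumor 1 or shXBP1 tumor 4, Psma2 without shXBP1 tumor 1, and Psma5 without shXBP1 tumor 4. Of the 17 base and lid subunits 13 were below 0, 4 were called lower, and the median was -0.18. The ATPases had 3 above 0 and 3 below, with a median of -0.03. The median was -0.22 for the other base subunits and -0.19 for the lid. Summed over subunits, core CPM divided by base and lid CPM was 0.80, 0.69, 0.75 and 0.74 in the 4 shNT tumors and 0.82, 0.97, 0.90 and 0.78 in the 4 shXBP1 tumors. The groups overlapped, because shXBP1 tumor 4 lay below shNT tumor 1. No test of the difference between particles was made. With Ptprc, a pan-leukocyte marker, as a covariate, 14 of the 15 core subunits were below 0, with a median of -0.35. Base and lid subunits stayed mostly below 0, 15 of the 17, with a median of -0.10. The median SE over all genes was 0.25 in that fit, against 0.12 without the covariate, and edgeR called no member. Ptprc does not overlap between the groups, so the hairpin and the leukocyte level cannot be told apart there.

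**Figure D2:**
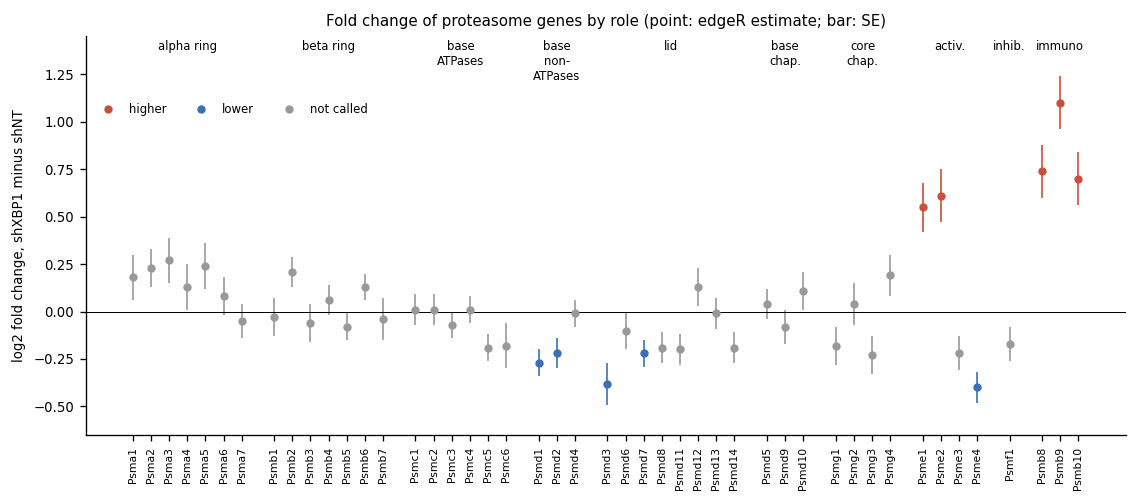
log2 fold change (shXBP1 minus shNT) of 43 members, all tested ones but Psma8, and of the inducible Psmb8, Psmb9 and Psmb10, by role, with the edgeR estimate as a point and its SE as a bar. Most members lie within 0.25 of 0, Psme1 and Psme2 stand above the other members, the inducible subunits reach 0.70 to 1.10, Psme4 and Psmd3 reach the lowest values, and lid members other than Psmd12 are below 0.

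The activators split. Psme1 and Psme2, whose products form a ring-shaped cap that opens the core without ATP, were the only members called higher in the main edgeR fit. Psme4, which encodes a large single-chain activator of the core known from the nucleus and from DNA repair and spermatogenesis, was the member with the smallest p and fell. Psme3, a nuclear relative of Psme1 and Psme2, did not pass the test.

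Psme1 (ENSMUSG00000022216, chr14:55578123-55581529, plus strand, GRCm38) measured 209, 169, 209 and 211 CPM in the 4 shNT tumors and 318, 333, 297 and 218 CPM in the 4 shXBP1 tumors. All shXBP1 tumors were above all shNT tumors, tumor 4 by the least. The group means were 199.5 ± 20.2 and 292 ± 51.2 CPM (SD, n = 4 each), a 1.46-fold rise (a log2 fold change of 0.55, SE 0.13, adjusted p = 0.00645).

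Psme2 (ENSMUSG00000079197, chr14:55587441-55591113, minus strand), a neighbour of Psme1, measured 147, 130.4, 151.5 and 139 CPM in the 4 shNT tumors and 227, 259, 232 and 148.7 CPM in the 4 shXBP1 tumors. The first 3 shXBP1 tumors stood above every shNT tumor, whereas tumor 4 lay between shNT tumors 1 and 3, so the groups overlapped. The means were 142 ± 9.34 and 217 ± 47.5 CPM (a log2 fold change of 0.61, SE 0.14, adjusted p = 0.00788). Psme2b, a close copy that could share reads with Psme2, moved by 0.62 (SE 0.16, adjusted p = 0.0123). With the counts of both summed, chosen after seeing the data, the change was 0.61 (adjusted p = 0.00641).

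Leukocyte RNA moved with these activators. Ptprc, the pan-leukocyte antigen CD45, measured 59.4, 42.55, 66.5 and 56.4 CPM in the shNT tumors and 156, 193, 171 and 94.8 CPM in the shXBP1 tumors, without overlap and lowest in tumor 4 of the shXBP1 group. When Ptprc (log2 CPM) entered the model as a covariate, the edgeR estimate was -0.28 for Psme1 (SE 0.17, adjusted p = 0.466) and -0.35 for Psme2 (SE 0.18, adjusted p = 0.351). Since Ptprc does not overlap between the groups, the hairpin and the leukocyte level cannot be told apart in that fit.

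Psme4 (ENSMUSG00000040850, chr11:30771726-30880361, plus strand) measured 116, 115, 109.9 and 98.8 CPM in the 4 shNT tumors and 81.2, 80.4, 81.9 and 88.5 CPM in the 4 shXBP1 tumors. All shXBP1 tumors were below all shNT tumors, and shXBP1 tumor 4 was again the nearest to them. The means were 109.9 ± 7.87 and 83.0 ± 3.71 CPM, a 1.32-fold fall (a log2 fold change of -0.40, SE 0.08, adjusted p = 0.00214). Psme3 (ENSMUSG00000078652, chr11:101316213-101323537, plus strand) measured 145, 169, 158.7 and 139.7 CPM against 132, 115, 131 and 148.7 CPM. Tumor 4 of the shXBP1 group lay within the shNT range and the other 3 below it. The change was -0.22 (SE 0.09, adjusted p = 0.0995).

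**Figure D3:**
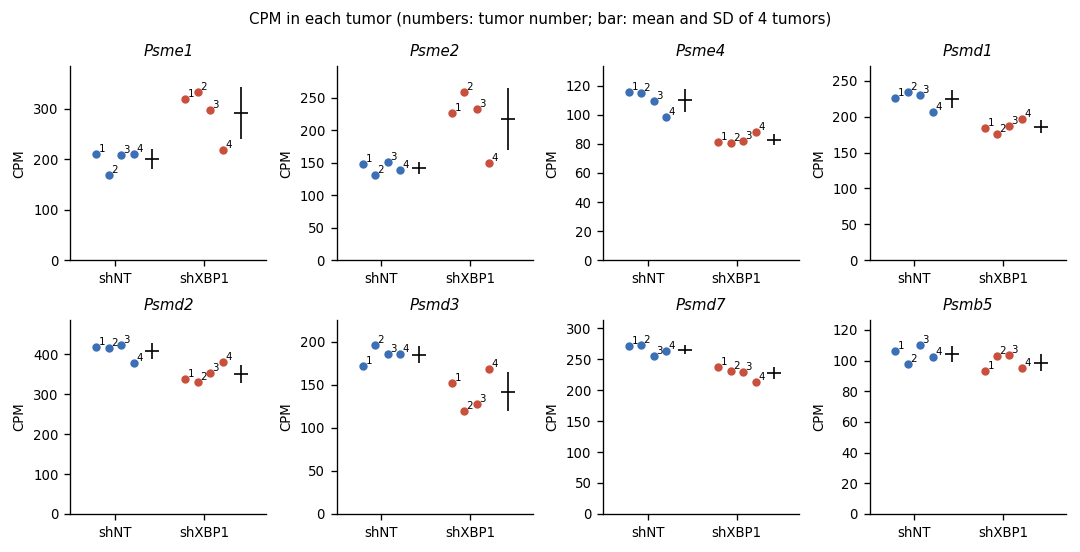
CPM of the called members and of Psmb5, which was not called, in each tumor, with the tumor number beside each point and the mean and SD of 4 tumors as a bar. Psme1 and Psme2 are higher and Psmd1, Psmd2, Psmd3, Psmd7 and Psme4 lower in the shXBP1 tumors. Tumor 4 of that group is nearest to the shNT mean in 6 of the 7 called members, and in 18 of all 44 members tested.

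In the regulatory particle, both large scaffold subunits of the base and 2 lid subunits fell, by 1.17-fold to 1.30-fold. Psmd1 and Psmd2 are the scaffolds on which ubiquitin receptors and shuttle factors dock. Psmd3 is a structural lid subunit, and Psmd7 is the inactive partner of Psmd14, the deubiquitinase of the lid. Summed over Psmd1, Psmd2 and Psmd4, the CPM were 756 to 812 in shNT tumors and 660.1 to 737 in shXBP1 tumors. Summed over the 8 lid members, without Sem1, they were 1215 to 1300.0 and 1111 to 1158.

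Psmd3 (ENSMUSG00000017221, chr11:98682554-98695979, plus strand) measured 172, 196, 186 and 186 CPM in the 4 shNT tumors and 152, 119.6, 127 and 168.5 CPM in the 4 shXBP1 tumors. The groups did not overlap, though shXBP1 tumor 4 came close to shNT tumor 1. The means were 185 ± 9.59 and 142 ± 22.6 CPM (a log2 fold change of -0.38, SE 0.11, adjusted p = 0.0168).

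Psmd1 (ENSMUSG00000026229, chr1:86064387-86139151, plus strand) measured 227, 235, 230.0 and 207 CPM against 185, 175.5, 188 and 198 CPM. All shXBP1 tumors were below all shNT tumors. The means were 225 ± 12.2 and 186 ± 9.10 CPM (a log2 fold change of -0.27, SE 0.07, adjusted p = 0.0165).

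Psmd7 (ENSMUSG00000039067, chr8:107580381-107588464, minus strand) measured 271, 272, 256 and 263.5 CPM against 237, 231, 229.5 and 214 CPM, again without overlap; here shXBP1 tumor 4 was the lowest of all. Its change was -0.22 (SE 0.07, adjusted p = 0.0318). Psmd2 (ENSMUSG00000006998, chr16:20651652-20663414, plus strand) measured 419, 417, 422 and 379 CPM against 339, 329.9, 353 and 381 CPM. These groups overlapped, as shNT tumor 4 was low and shXBP1 tumor 4 high for their groups. Its change was -0.22 (SE 0.08, adjusted p = 0.0489), which is next to the threshold.

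These 4 calls depend on single tumors, whereas those of Psme1, Psme2 and Psme4 were kept without any of the 8. With each tumor left out in turn, the adjusted p ran from 0.0015 to 0.059 for Psmd3, from 0.00952 to 0.0603 for Psmd1, from 0.0399 to 0.0769 for Psmd7 and from 0.0222 to 0.147 for Psmd2. Psmd7 was called only without shXBP1 tumor 1, and Psmd2 only without shNT tumor 4 or shXBP1 tumor 4. Without shNT tumor 2, or without shNT tumor 3, Psme4 was the only member called lower. 2 members were called lower without shXBP1 tumor 2 (Psmd3, Psme4) or tumor 3 (Psmd1, Psme4), and 3 without shNT tumor 1. Without shXBP1 tumor 4 the count was 8 lower and 5 higher: Psmc5, Psmd11, Psme3 and Psmg3 joined Psmd1, Psmd2, Psmd3 and Psme4, and Psma3, Psma5 and Psmb2 joined Psme1 and Psme2. With upper-quartile scaling the split was 3 higher and 4 lower. With Ptprc as a covariate edgeR called no member. The 6 members at an unadjusted p below 0.05, all lower, were Psma1, Psma4, Psma5, Psma7, Psmb3 and Psmc6. None of these was called without the covariate when all 8 tumors were in the fit. For the members called lower the estimates were 0.14 for Psmd3, -0.09 for Psmd1, -0.30 for Psmd7, -0.04 for Psmd2 and -0.23 for Psme4. Most proliferation genes were lower and most host cell markers higher in the shXBP1 tumors, and their part in these falls was not tested.

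The other base and lid subunits stayed short of the test. Psmc5, an ATPase of the base, came nearest among the ATPases. It measured 117, 126, 128 and 117 CPM in shNT tumors and 107, 103, 107 and 112 CPM in shXBP1 tumors, which did not overlap (a log2 fold change of -0.19, SE 0.07, adjusted p = 0.0635). Psmd8 and Psmd11, lid subunits, did not overlap between groups either, at -0.19 and -0.20 (adjusted p = 0.0758 for each). The ATPases Psmc1, Psmc2 and Psmc4 each had an estimate of 0.01, and Psmd4, a ubiquitin receptor, and Psmd13 each -0.01. Psmd14 measured -0.19 (adjusted p = 0.109). Among the 8 lid members only Psmd12 had an estimate above 0, at 0.13 (adjusted p = 0.34). Sem1, a lid subunit outside the name rule, had an estimate of 0.21 (SE 0.17, edgeR adjusted p = 0.37). Adrm1, a base subunit outside it, had -0.14 (SE 0.11, edgeR adjusted p = 0.358).

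None of the subunits that form the catalytic core passed the test. Psmb5, which carries the chymotrypsin-like site, measured 106, 97.9, 109.8 and 102 CPM in shNT tumors and 92.9, 103, 104 and 95.0 CPM in shXBP1 tumors (a log2 fold change of -0.08, SE 0.07, adjusted p = 0.469). Psmb6, with the caspase-like site, measured 149, 132, 133 and 135 CPM against 149.7, 152, 154 and 145.5 CPM (0.13, SE 0.07, adjusted p = 0.19). Psmb7, with the trypsin-like site, measured 157, 129, 140.4 and 128 CPM against 114, 154, 147.5 and 124 CPM (-0.04, SE 0.11, adjusted p = 0.813). For all 3 the groups overlapped.

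Psmb2, a structural beta subunit, had the smallest p of the core. It measured 115, 118, 131 and 120.2 CPM in shNT tumors and 134, 151, 145.5 and 130.0 CPM in shXBP1 tumors, and only shNT tumor 3 lay above any shXBP1 tumor (0.21, SE 0.08, adjusted p = 0.0607). Psmb4 measured 243, 208, 208 and 212.5 CPM against 214, 239.9, 240.1 and 214 CPM, with shNT tumor 1 above every shXBP1 tumor (0.06, SE 0.08, adjusted p = 0.631). Psmb1 and Psmb3 had estimates of -0.03 and -0.06.

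In the alpha ring 6 of 8 genes had an estimate above 0, from 0.08 for Psma6 to 0.27 for Psma3, and none was called with all 8 tumors in the fit. Psma2, with the smallest p, measured 126, 125, 131.5 and 113 CPM in shNT tumors and 125, 173, 149.6 and 135 CPM in shXBP1 tumors. Tumors 2, 3 and 4 of the shXBP1 group were above every shNT tumor and tumor 1 was not (0.23, SE 0.10, adjusted p = 0.103). Psma6 measured 149, 119.6, 124 and 121 CPM against 129, 152, 141.5 and 119 CPM, overlapping throughout (0.08, SE 0.10, adjusted p = 0.589).

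The rings varied from tumor to tumor within each group. Summed over the alpha ring, the 4 shNT tumors had 1236, 1021, 1116 and 1056 CPM and the 4 shXBP1 tumors had 1128, 1424, 1268 and 1021 CPM. The beta ring gave 1181, 1017, 1080 and 1037 CPM and 1011, 1198, 1154 and 1040 CPM. Tumor 1 was the highest shNT tumor for both rings, and tumors 2 and 3 the highest shXBP1 tumors. Tumor 4 of the shXBP1 group was level with the lowest shNT tumor for the alpha ring and lay between shNT tumors 4 and 3 for the beta ring. The groups overlapped for both rings.

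**Figure D4:**
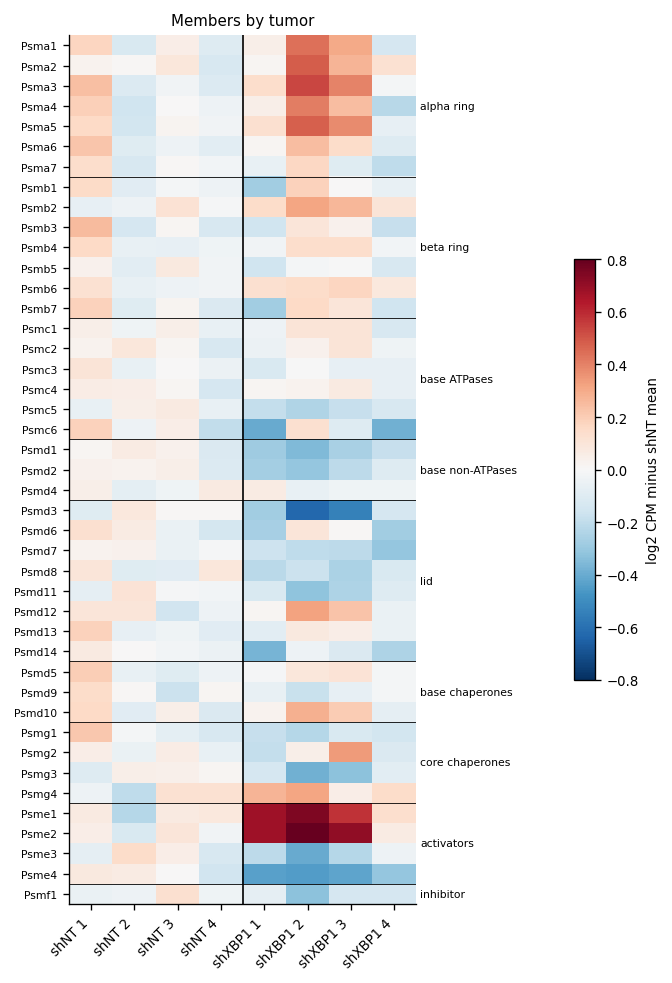
log2 CPM of each member in each tumor minus the mean of the 4 shNT tumors, by role, with tumors as columns. Most alpha ring subunits are above the shNT mean in shXBP1 tumors 1, 2 and 3 and in shNT tumor 1, furthest in shXBP1 tumors 2 and 3, most lid subunits are lower in all shXBP1 tumors, and Psme1 and Psme2 are high in shXBP1 tumors 1, 2 and 3.

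Promoter windows from RefSeq, 250 bases before to 50 after the start in GRCm38.p6, were found for 37 members (40 windows) and searched on both strands for short motifs, beside all 32851 windows. TGACNNNGC, the core of the antioxidant response element that NRF1 and NRF2 bind, and through which NRF1 is known to raise proteasome genes when the proteasome is inhibited, was in 6 of the 40 member windows (15.0%) and in 12.4% of all windows. Among its carriers are the catalytic subunits Psmb5 (chr14:54618023-54618052, minus) and Psmb6 (chr11:70525338-70525367, plus), and Psme4 (chr11:30771758-30771787, plus), which fell; the others are Psmc6, Psmd9 and Psmd12, none of them called. CCACGT, the core that XBP1 binds, was in 3 windows (7.5%, 8.31% of all), those of Psma1 (chr7:114276191-114276220, minus), Psma4 (chr9:54950706-54950735, plus) and Psmd9 (chr5:123228126-123228155, plus), shown as 30 bases with the motif in capitals, 5′ to 3′ on the strand of the gene. In Psme4 the match is on the opposite strand, so its capitals show the reverse complement of the motif. A match in letters is not a measured binding site.
Psmb5: cgtgaagttgTGACGTCGCggcgttgccag
Psmb6: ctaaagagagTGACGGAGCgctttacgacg
Psme4: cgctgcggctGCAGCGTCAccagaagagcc
Psma1: ttcctgccaatcCCACGTtctcagctttcg
Psma4: cttctgcacagtCCACGTgggcagactgag
Psmd9: gtcatctgaaaaCCACGTggtctatctagc
In Psma1 the box CCAAT precedes CCACGT without overlapping it. The 3 carriers of CCACGT were not called, with estimates of 0.18 (Psma1), 0.13 (Psma4) and -0.08 (Psmd9). CCAAT, the box of the factor NF-Y, was in 13 windows (32.5%, 37.4% of all). No window was in the table for 8 members, among them Psmd3 and Psmd7.

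Assembly chaperones and the inhibitor were not called (0 of 8 by edgeR, with Psmg3 alone at an unadjusted p below 0.05). Psmd10, a base chaperone also known as gankyrin, measured 31.2, 26.3, 28.9 and 25.8 CPM in shNT tumors and 28.5, 34.1, 32.2 and 26.6 CPM in shXBP1 tumors, overlapping (0.11, SE 0.10, adjusted p = 0.44). Psmg3, a core chaperone, measured 25.15, 27.8, 27.8 and 27.2 CPM against 24.6, 20.6, 21.45 and 25.4 CPM. Only tumor 4 of the shXBP1 group reached above the lowest shNT tumor (-0.23, SE 0.10, adjusted p = 0.0927). Psmf1 measured 32.0, 32.3, 36.3 and 32.5 CPM against 31.6, 26.5, 30.2 and 30.3 CPM, narrowly without overlap (-0.17, SE 0.09, adjusted p = 0.181). The other chaperones lay between -0.18 for Psmg1 and 0.19 for Psmg4.

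The inducible catalytic subunits were higher relative to the constitutive subunits whose place they take. Psmb9 rose by 1.10 (SE 0.14, adjusted p = 0.000196), Psmb8 by 0.74 (SE 0.14, adjusted p = 0.00191) and Psmb10 by 0.70 (SE 0.14, adjusted p = 0.00262) on the log2 scale. By FPKM, Psmb8 made up 53.8% to 58.5% of the sum of Psmb8 and Psmb5 in shNT tumors and 63.0% to 73.3% in shXBP1 tumors. Psmb9 made up 23.2% to 30.5% and 38.0% to 44.9% of its sum with Psmb6, and Psmb10 48.1% to 54.4% and 56.9% to 69.3% of its sum with Psmb7. In none of the 3 pairs did the groups overlap.

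Tested within tumors, the log2 ratio of counts was higher in the shXBP1 tumors by 0.97 for Psmb9 to Psmb6, by 0.80 for Psmb8 to Psmb5 and by 0.73 for Psmb10 to Psmb7. The 2-sided exact permutation p was 0.0286 for each, the smallest that 4 tumors against 4 allow, and 0.0476 adjusted over the 5 pairs. Without any single shNT tumor the adjusted p was 0.0714 or 0.0857 in all 3 pairs, so the call was lost, whereas without any single shXBP1 tumor it was 0.0286 or 0.0476. Before adjustment, the exact permutation p without a shNT tumor stayed at 0.0286 for Psmb9 to Psmb6. It was 0.0571 for the other catalytic pairs. For Psme1 to Psme3 the ratio was 0.53, 0.00, 0.40 and 0.59 in shNT tumors and 1.27, 1.53, 1.18 and 0.55 in shXBP1 tumors. Tumor 4 of the shXBP1 group lay below shNT tumor 4, and the difference of 0.75 had an exact permutation p of 0.0571 (adjusted p = 0.0571). For Psme2 to Psme3 the difference was 0.80 with the same p-values. Without shXBP1 tumor 4 these differences were 0.95 and 1.03, each with an exact permutation p of 0.0286. Most leukocyte markers were also higher in the shXBP1 tumors, and their part in these ratios was not tested.

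**Figure D5:**
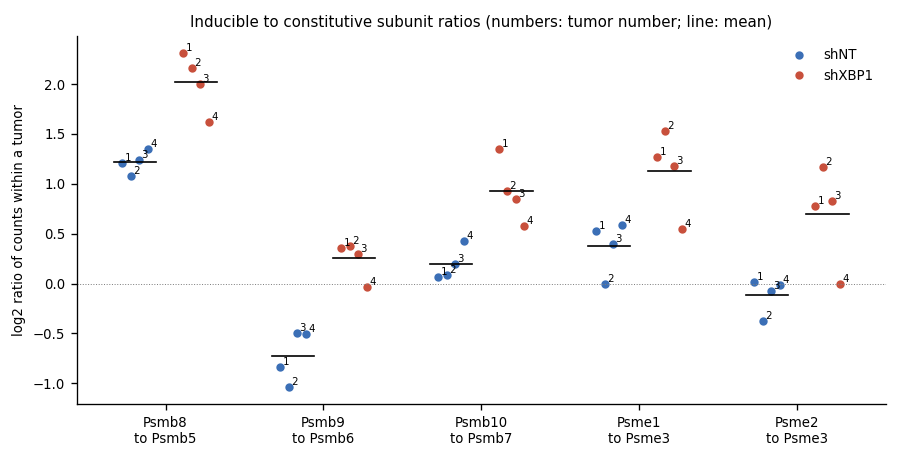
log2 ratio of counts within each tumor for 3 inducible to constitutive catalytic pairs and for Psme1 and Psme2 to Psme3, with the tumor number at each point and the group mean as a line. The groups are apart for the catalytic pairs, whereas shXBP1 tumor 4 lies within the shNT range for both activator pairs.

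Genes that work beside the proteasome were read from lists. Of 5 regulators of proteasome transcription, 1 was called: Nfe2l2, the gene of NRF2, measured 84.7, 64.2, 87.7 and 71.6 CPM in shNT tumors and 105, 122, 111 and 90.0 CPM in shXBP1 tumors, without overlap (0.47, SE 0.12, adjusted p = 0.00891). Nfe2l1, the gene of NRF1, had an estimate of -0.22 (adjusted p = 0.119). Of 11 tested shuttle and unfolding factors, which bring ubiquitin-tagged proteins to the proteasome, 6 were lower (13.1% of all genes were) and none higher, with a list median of -0.22 against -0.0054 over all genes. Nploc4, an adaptor of the Vcp unfoldase in the export of misfolded proteins from the endoplasmic reticulum, measured 105.5, 134, 120.4 and 119 CPM in shNT tumors and 83.4, 71.3, 78.8 and 80.7 CPM in shXBP1 tumors (-0.61, SE 0.09, adjusted p = 0.000384). The groups were well apart. Faf1, another Vcp adaptor (-0.32, adjusted p = 0.0245), and the shuttle Rad23b (-0.24, adjusted p = 0.0257) also fell. Of 12 other bound and assembly factors 1 was lower, the proteasome-bound ubiquitin ligase Ube3c (-0.46, SE 0.09, adjusted p = 0.00305), and none was higher. Pomp, the maturation factor of the core, had an estimate of 0.31 (SE 0.12, adjusted p = 0.0804). Neither of the ubiquitin-activating enzymes Uba1 and Uba6 was called (unadjusted p of 0.211 and 0.13).

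In the authors' deposited table of their DESeq2 comparison, 3 members are listed as higher and 6 as lower at an adjusted p below 0.05. They include all 7 called here, together with Psmb2 (a log2 fold change of 0.21, adjusted p 0.0298) and Psmc5 (-0.18, adjusted p 0.0313).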

How the data were processed

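Per the file headers, the authors deposited a read count and an FPKM value per gene and tumor, and a DESeq2 comparison with log2 fold changes and adjusted p-values. The submitters' processing notes name the build GRCm38. Not given in the sources used here are the aligner, the counter, its strand setting, its handling of reads that map to several genes and the FPKM formula. Columns were tied to tumors by the codes in the sample titles, and groups by the genotype in them. Counts were tested with edgeR 4.0.16 in R 4.3.3 (filterByExpr, TMM factors of 0.98 to 1.04, robust quasi-likelihood fit, no covariate, Benjamini-Hochberg over 14907 genes, threshold 0.05), after tests on simulated data. Of the 25766 entries, 3730 are loci without an annotated symbol. SE is the size of the log2 fold change divided by the square root of F. Pairs were tested on log2 ratios of counts with 0.5 added, by exact permutation over the tumors. Gene positions are from GENCODE M21 and promoter windows from RefSeq (GRCm38.p6). Replicate tumors differed beyond sampling noise (lowest chi-square per degree of freedom 16.6). The alternatives were DESeq2 1.42.0, voom of limma 3.58.1, other scaling, filters, thresholds, a tumor-number block, a Ptprc covariate and leaving out each tumor.

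Values in every tumor are given for the catalytic subunits, the activators, called members, the member with the smallest p in each role and those with 1 tumor far from its group; of the other lists, up to 3 called genes are named. Members and lists were chosen with earlier results of these data known. A gene list and 2 promoter motifs that were looked at are not reported here.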

Additional observations from a re-analysis of the deposited data

Results flagged for a closer look

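For 8 of the 104 groups of 4 tumors looked at, 1 tumor lay far from the other 3 by Dixon's test, which chance does in about 1 of 20 groups. Tumor 1 of the shNT group was highest for 3 core subunits: Psma6 at 148.7 CPM (others 119.6 to 123.9), Psmb4 at 242.6 CPM (others 208.0 to 212.5) and Psmb6 at 149.2 CPM (others 131.8 to 134.6). The same tumor had 0.0 CPM of Psma8, where the others had 0.374 to 0.416 CPM. Psme1 in shNT tumor 2 was low at 169.3 CPM (others 208.8 to 210.8), and without that tumor its log2 fold change was 0.47 (edgeR adjusted p = 0.024). Psmd2 in shNT tumor 4 was low at 379.3 CPM (others 416.8 to 422.3), and Psmf1 in shNT tumor 3 was high at 36.32 CPM (others 31.99 to 32.46). Of the inducible subunits, Psmb9 in shXBP1 tumor 4 was low at 142.2 CPM (others 189.2 to 197.6).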

How the results depend on the processing

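Members called higher were 2, and 2 to 5 with a tumor left out; they were 0 with the Ptprc covariate, where 0 had an unadjusted p below 0.05 and 134 genes in all were called higher and 106 lower. Members called lower were 5, and 1 to 8 with a tumor left out, 8 with DESeq2, 3 without a filter on low counts, 3 with a minimum of 10 CPM in 4 tumors, 1 at an adjusted p below 0.01, 10 at one below 0.1, and 0 with the Ptprc covariate, where 6 had an unadjusted p below 0.05 on the lower side. The median log2 fold change moved to -0.17 with that covariate, from -0.04. The causes of these shifts were not tested. With the covariate 23 of the 44 estimates changed sign, 10 of them among members with values in every tumor: Psma2 -0.08, Psma6 -0.34, Psmb2 -0.06, Psmb4 -0.15, Psmd10 -0.33, Psmd3 0.14, Psme1 -0.28, Psme2 -0.35, Psme3 0.18 and Psmg3 0.07. Psma8 changed sign with voom (0.48) and ran from -0.57 to 0.06 with a tumor left out; Psmb7 did at the 10 CPM minimum (0.00) and ran from -0.11 to 0.03 with a tumor left out.

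Tumors of the same number did not deviate together (correlations of -0.141 to -0.025, and of -0.095 to 0.167 between different numbers). The labels do not say whether the number marks a shared mouse or day, and these correlations cannot decide it. With the tumor number as a block in edgeR, 2 members were called lower (Psmd3 and Psme4) and 2 higher (Psme1 and Psme2). In the blocked exact test the ratios kept their differences of 0.80 (Psmb8 to Psmb5), 0.97 (Psmb9 to Psmb6) and 0.73 (Psmb10 to Psmb7) at p = 0.125, the smallest it allows.

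With a tumor left out, the ratio differences ran from 0.71 to 0.94 for Psmb8 to Psmb5, 0.87 to 1.07 for Psmb9 to Psmb6, 0.59 to 0.85 for Psmb10 to Psmb7, 0.62 to 0.95 for Psme1 to Psme3 and 0.64 to 1.03 for Psme2 to Psme3. The 3 catalytic ratios lost their call in the 4 cases without a shNT tumor (adjusted p = 0.0714 or 0.0857), and the 2 activator ratios gained one without shXBP1 tumor 4. For Psmb9 to Psmb6 the exact permutation p before adjustment stayed at 0.0286 in each case without a shNT tumor. With 2 counts added or with deposited FPKM the 5 ratios stayed on the same side of the threshold. Depth limits Psma8 and Psmb11, and with 4 tumors a group small differences can be missed.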
